A study of Homo sapiens with 6 samples.

Results

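The Krüppel-like factors (KLFs) described here are 10 transcription factor genes, KLF2, KLF3, KLF4, KLF5, KLF6, KLF7, KLF9, KLF11, KLF13 and KLF16. They were taken from the count table by an exact match of the gene name, and all 10 had a row among the 63643 in the table. The members were chosen by their counts in methylglyoxal-treated against untreated cells, the contrast described below, so that difference is given as a description. No p-value is printed for a member, and calls of members are counted only beside the share of all genes called. All 10 passed the filter on low counts and were among the 23109 genes tested.

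RNA came from HEK293T cells, a transformed line of human embryonic kidney origin that carries SV40 large T antigen, in which GLO1 had been deleted per the growth protocol and the series' design text. GLO1 encodes glyoxalase 1, which acts first in removing methylglyoxal (MGO), a reactive carbonyl formed as a side product of glycolysis. The MGO group (3 libraries) had received 60 µM MGO for 4 h and the Control group (3 libraries) was left untreated. The deletion was thus shared by both groups, and the labels do not say whether the line is 1 clone or whether the replicates were separate cultures. A p-value here therefore rests on variation among these libraries that could be technical.

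KLFs bind GC-rich and CACCC-type promoter sequences through C2H2 zinc fingers near the C terminus, and they differ in the cofactors held by the rest of the protein. KLF2, KLF4, KLF5, KLF6 and KLF7 fall in a group that mainly activates transcription and recruits acetyltransferases. KLF3 binds the corepressor CtBP, and KLF9, KLF11, KLF13 and KLF16 bind the corepressor SIN3A. Several KLF genes are known to be transcribed soon after growth factor, hormone or stress signals.

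Total counts lay between 117427883 and 157639431 per library. Levels are given in CPM, counts over the library total after TMM scaling, and changes are relative to that scaling since the labels name no spike-in RNA. GLO1 itself had counts in both groups, at 102 ± 4.53 CPM in MGO and 37.3 ± 0.885 in Control (SD, n = 3), which checks neither the deletion nor the group labels, since the deleted part is not stated. All 7 markers listed for HEK293T cells were detected, with 3 raised (KRT8, KRT18 and VIM) and 4 lowered (PAX2, NEFM, NEFL and LIN28B) in MGO. Their median log2 fold change was −0.72, while their summed level, mostly keratins and vimentin, was 1996 to 2230 CPM in MGO and 962 to 1005 in Control. PAX2 and NEFM were low (6.59 and 1.46 CPM in Control). Summed endothelial markers were lower in MGO (0.292 to 0.491 CPM) than in Control (1.05 to 1.31), with VWF at −2.11 and KDR at −1.63 on the log2 scale and PECAM1 and CDH5 at 13 and 16 counts in all. With the trend on transcript length removed, as described below, VWF was at −0.55 and not called. Summed fibroblast markers were also lower in MGO (5.20 to 5.75 CPM against 14.2 to 15.4), carried by COL1A1 (−1.70), while LUM was at 0.63 and COL3A1 and DCN had 15 and 23 counts. Scaled by library size alone, LUM was at 0.10 and not called. Of the blood cell markers, LYZ was called raised (2.56, SE 0.75, edgeR adjusted p = 0.00715), at 0.673, 0.0885 and 0.0960 CPM in MGO and 0.0351, 0.0634 and 0.0403 in Control. Without MGO replicate 1 that call ended (0.96, edgeR adjusted p = 0.0739), and PTPRC and CD3E had 33 and 5 counts in all. The part of such cells in the KLF differences was not tested. In bulk RNA, fewer cells making a transcript and less of it per cell cannot be told apart. Some genes that most cells use were near 0, such as LDHA with 8 counts over the 6 libraries and IARS1 with 3, so a low level of a KLF in this table is not read as low expression.

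Promoter sequences are shown for some of the members whose upstream window holds a match to a motif of signal-responsive factors. RefSeq windows on GRCh38.p14 were matched by symbol for 9 members, and the 250 bases before each annotated start were searched on both strands. The windows printed are those of KLF6, KLF11, KLF4 and KLF2, 4 of the members higher in MGO, and of KLF13, the member that was lower. They do not follow the size of the difference: KLF9 had no match. KLF16, whose window holds 2 CRE cores, and KLF5 and KLF7, which also hold matches, are not printed. Each reads 5′ to 3′ on the gene's strand, and the capitals mark matches to the E-box CACGTG, the cyclic AMP response element (CRE) TGACGTCA or its core TGACG, the AP-1 site TGANTCA, the TATA box TATAAA, the CArG box and the MEF2 site. A CRE holds the core on both strands, so these overlap.
KLF6 (chr10:3785210-3785459, minus strand): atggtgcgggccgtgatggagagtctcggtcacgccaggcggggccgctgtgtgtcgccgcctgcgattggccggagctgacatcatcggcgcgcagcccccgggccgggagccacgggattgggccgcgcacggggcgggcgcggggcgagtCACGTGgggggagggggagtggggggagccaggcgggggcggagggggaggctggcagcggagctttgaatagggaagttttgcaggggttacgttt
KLF11, upstream start (chr2:10043579-10043828, plus strand): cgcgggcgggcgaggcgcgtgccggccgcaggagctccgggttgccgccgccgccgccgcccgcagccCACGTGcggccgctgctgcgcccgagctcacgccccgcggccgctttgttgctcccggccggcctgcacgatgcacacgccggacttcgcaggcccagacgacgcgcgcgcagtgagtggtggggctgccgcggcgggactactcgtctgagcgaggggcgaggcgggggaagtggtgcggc
KLF11, downstream start (chr2:10043971-10044220, plus strand): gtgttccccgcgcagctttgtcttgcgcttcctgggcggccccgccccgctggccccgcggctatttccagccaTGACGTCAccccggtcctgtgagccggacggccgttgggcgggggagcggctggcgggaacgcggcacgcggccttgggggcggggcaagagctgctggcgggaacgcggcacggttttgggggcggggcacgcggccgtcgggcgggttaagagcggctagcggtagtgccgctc
KLF4 (chr9:107489770-107490019, minus strand): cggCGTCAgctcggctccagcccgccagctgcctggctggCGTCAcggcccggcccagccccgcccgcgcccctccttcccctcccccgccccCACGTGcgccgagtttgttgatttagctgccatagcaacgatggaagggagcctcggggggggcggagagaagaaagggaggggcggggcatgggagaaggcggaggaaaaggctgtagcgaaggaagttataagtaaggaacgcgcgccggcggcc
KLF2 (chr19:16324576-16324825, plus strand): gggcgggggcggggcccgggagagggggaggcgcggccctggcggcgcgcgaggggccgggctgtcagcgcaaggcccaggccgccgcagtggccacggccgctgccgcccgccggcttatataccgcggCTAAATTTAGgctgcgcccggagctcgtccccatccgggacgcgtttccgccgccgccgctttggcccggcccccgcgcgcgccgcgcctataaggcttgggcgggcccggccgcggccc
KLF13 (chr15:31326585-31326834, plus strand): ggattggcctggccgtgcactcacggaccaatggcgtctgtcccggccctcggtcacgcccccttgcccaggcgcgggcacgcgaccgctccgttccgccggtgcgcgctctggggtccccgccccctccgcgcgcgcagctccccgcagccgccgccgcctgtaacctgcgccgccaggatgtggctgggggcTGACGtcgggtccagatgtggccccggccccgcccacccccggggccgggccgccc

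The E-box lay 97 bases before the start of KLF6, 157 before that of KLF4 and 182 before the upstream start of KLF11. With 1 of the 4 windows of KLF7, 4 of the 9 members held it, in 4 of their 14 windows, and 6.34% of all 35116 promoter windows of this length did. The downstream start of KLF11 had the full CRE, 176 bases before the start, which 1.65% of all windows hold. The CRE core was found for 5 of 9 members (KLF4, KLF5, KLF11, KLF13 and KLF16), in 5 of 14 windows, and in 21.2% of all windows. KLF2 had the MEF2 site, 120 bases before the start (2.8% of all windows), and 1 window of KLF7 had a CArG box, the binding sequence of serum response factor (1.16%). The AP-1 site was in no window of a member and in 6.57% of all windows. KLF9, in a window of 32.4% GC beside a median of 58% over all windows, held none of the marked motifs. The member that was lower, KLF13, shared the CRE core with members that were higher. Such matches were not particular to the members. KLF15, which was lower in MGO, held an E-box 46 bases before its start and 2 CRE cores. KLF14 also held 2 CRE cores, and 1 window of KLF12 held an AP-1 site and a MEF2 site. The printed windows had from 69.2% GC (KLF4) to 80% (KLF2), and the shares over all windows were not matched for GC. These matches describe letters in the sequence and say nothing of binding.

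In MGO, 8 of the 10 members passed the threshold as raised, 1 (KLF13) as lowered, and KLF3 did not pass (edgeR quasi-likelihood test, Benjamini-Hochberg adjusted p under 0.05 over all genes tested). Among all genes tested, 38.8% were called raised and 40.5% lowered. The groups did not overlap for 9 members, which was so for 81.5% of all genes tested. Because the members were listed with this contrast known, nothing is read from those counts. The counts for other gene lists below stand beside the same shares and are descriptions too. The median log2 fold change of the members was 1.41, beside −0.02 over all genes tested.

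**Figure D1:**
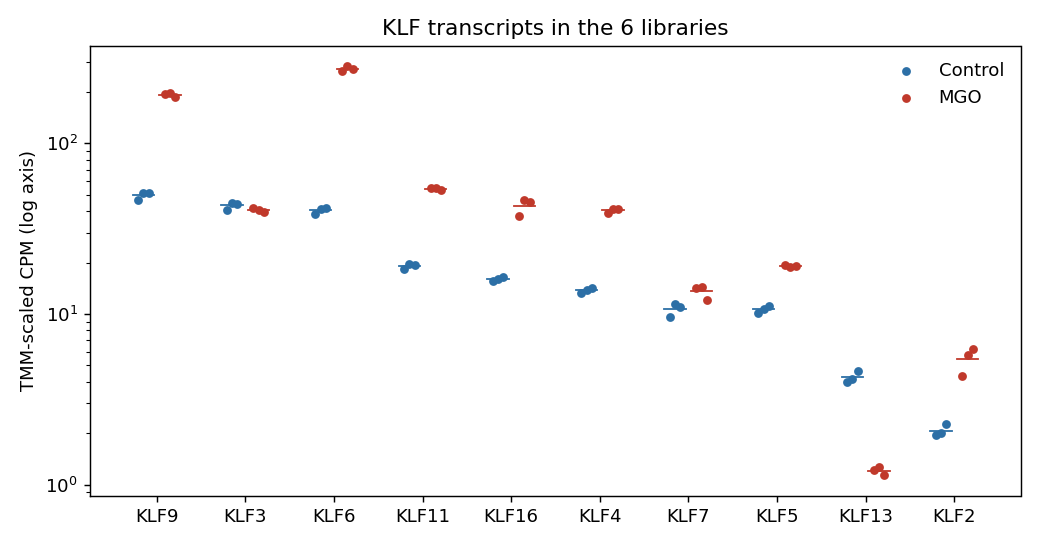
Level of each KLF member in every library, as TMM-scaled CPM on a log axis. Points are libraries (blue, Control; red, MGO) and lines the mean of 3. KLF6 and KLF9 reach 274 and 193 CPM in MGO, KLF3 overlaps between the groups, and KLF13 is the member that is lower in MGO.

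Among the activator group, KLF6 differed most. KLF6 (chromosome 10, 3775996 to 3785281, minus strand, GRCh38) is a widely expressed factor known for its induction after tissue injury. It stood at 267, 283 and 272 CPM in the MGO libraries and at 38.6, 41.0 and 41.8 in the Control libraries. All MGO values were far above all Control values, a ratio of means of 6.77 and a log2 fold change of 2.76 (SE 0.07). KLF4 (chromosome 9, 107484852 to 107490482), a factor of epithelial differentiation and of reprogramming to pluripotency, had 39.0, 41.2 and 41.2 CPM in MGO and 13.3, 13.8 and 14.3 in Control. Its groups were well apart, with a log2 fold change of 1.55 (SE 0.07).

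KLF2 (chromosome 19, 16324817 to 16327874) is best known from quiescent endothelium and T cells, where the kinase ERK5 and MEF2 factors drive it. Its level in this table was 4.33, 5.77 and 6.26 CPM in MGO and 1.96, 1.99 and 2.25 in Control, resting on 476 to 717 and 279 to 391 counts. MGO replicate 1 was the lowest of its group and still above every Control library, and the log2 fold change was 1.40 (SE 0.13). KLF5 (chromosome 13, 73054976 to 73077542), which promotes proliferation in intestinal crypts, had 19.3, 18.9 and 19.2 CPM in MGO and 10.1, 10.8 and 11.2 in Control. This was a smaller difference, of 0.84 (SE 0.07) on the log2 scale, with no overlap. KLF7 (chromosome 2, 207074137 to 207167267), a factor of neuronal development, had 14.2, 14.3 and 12.1 CPM in MGO and 9.56, 11.4 and 11.0 in Control. Its groups were separated only narrowly, and the log2 fold change of 0.34 (SE 0.09) turned to −0.18 under library size alone.

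KLF3 (chromosome 4, 38664196 to 38701042), the CtBP-binding member, had 41.6, 40.6 and 39.7 CPM in MGO and 40.9, 45.0 and 44.3 in Control. Its groups overlapped and its log2 fold change was −0.09 (SE 0.06), which was 0.08 under upper quartile scaling and −0.62 under library size alone. Since KLF3 and KLF6 stood at similar counts in Control, their ratio within a library shows the contrast free of library scaling, though not of the length trend given below. KLF6 had 0.942, 0.911 and 0.944 counts per KLF3 count in the Control libraries and 6.41, 6.96 and 6.86 in the MGO libraries.

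The SIN3A-binding members moved in both directions. KLF9 (chromosome 9, 70384597 to 70414624), known as a direct target of glucocorticoid and thyroid hormone receptors, had 194, 196 and 187 CPM in MGO and 46.9, 51.4 and 50.9 in Control. Every MGO library exceeded every Control library, with a ratio of means of 3.87 and a log2 fold change of 1.95 (SE 0.06). KLF11 (chromosome 2, 10042849 to 10054836), a TGF-β-inducible factor that regulates the insulin gene in pancreatic β cells, had 54.5, 54.5 and 53.2 CPM in MGO and 18.3, 19.7 and 19.5 in Control. The MGO libraries varied little around a log2 fold change of 1.50 (SE 0.06).

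KLF16 (chromosome 19, 1852399 to 1863568), a factor of GC-rich promoters, had 37.5, 46.7 and 45.3 CPM in MGO and 15.5, 16.1 and 16.4 in Control. MGO replicate 1 was again the lowest of its group, and the log2 fold change was 1.43 (SE 0.09). KLF13 (chromosome 15, 31326855 to 31435665), first described as an activator of the chemokine gene CCL5 in T cells, had 1.21, 1.27 and 1.13 CPM in MGO and 3.99, 4.13 and 4.64 in Control. These rest on 130 to 144 and 568 to 806 counts, all MGO values were below all Control values, and the log2 fold change was −1.82 (SE 0.11). Within libraries, KLF13 had 0.0980 ± 0.00655 counts per KLF3 count in Control and 0.0296 ± 0.00150 in MGO (SD, n = 3).

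To compare members with each other, counts were divided by transcript length and scaled to a fixed total per library (TPM). On this scale KLF16 led the members in Control at 33.1 ± 1.25 TPM, followed by KLF3 (27.0 to 30.6 over the 3 libraries), KLF9 (22.5 ± 1.41), KLF6 (20.8 ± 1.06), KLF4 (13.5 ± 0.598) and KLF11 (11.1 ± 0.579). KLF7 (8.23 ± 0.871), KLF5 (7.67 ± 0.441), KLF2 (3.74 ± 0.285) and KLF13 (2.72 ± 0.220) came last (SD, n = 3). The Control ranges of KLF9 and KLF6 overlapped, as did those of KLF7 and KLF5, and no other neighbours in this order did. In MGO the order was KLF6 (68.0 ± 1.80), KLF16 (42.7 ± 3.05), KLF9 (41.9 ± 2.32), KLF4 (19.1 ± 0.317), KLF11 (15.1 ± 0.818), KLF3 (13.1 ± 0.891), KLF5 (6.61 ± 0.378), KLF7 (5.03 ± 0.585), KLF2 (4.73 ± 0.696) and KLF13 (0.371 ± 0.0258). KLF16 and KLF9 overlapped there, as did KLF7 and KLF2. Short transcripts took more of the total in MGO, so TPM levels themselves are compared only within a group. The order also depends on the length used, since KLF16 has a median transcript of 1133 nt and a longest of 2890 nt, and with the longest it stood at 17.2 TPM in Control. Some commonly used genes, such as LDHA, were near 0 in this table. A low place in the order is therefore not read as low expression, and the shares below carry this limit too.

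Within the summed level of all 18 KLF genes, KLF6 made up 11.5 ± 0.0833% in Control and 22.6 ± 0.267% in MGO. KLF3 made up 16.0 ± 0.204% in Control and 4.35 ± 0.139% in MGO. The sum itself was 181 ± 10.1 TPM in Control and 301 ± 11.4 in MGO, so a share can shrink while a gene's level does not. KLF3 was at −0.09 on the log2 scale of CPM. Its smaller share, and that of the class that holds it, is therefore not read as a loss of mRNA. The CtBP-binding genes KLF3, KLF8 and KLF12 together held 19.4 to 20.2% of the sum in Control libraries and 4.66 to 4.93% in MGO libraries. The SIN3A-binding genes held 47.6 to 48.3% in Control and 59.9 to 60.7% in MGO. Of these, KLF10, which is no member, held 8.97% in Control and 26.9% in MGO (means). The other 5 held 38.8 to 39.4% in Control and 32.1 to 34.2% in MGO of the same sum, which still includes KLF10. Their share of a sum without KLF10 was not computed, so this is not read as a fall. The activator group held 29.7 to 30.2% in Control and 33.8 to 34.9% in MGO. None of these ranges overlapped between the groups. The sums and shares carry the same limit as TPM, since they set transcripts of different length side by side. How far the length trend moves them between the groups was not tested.

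**Figure D2:**
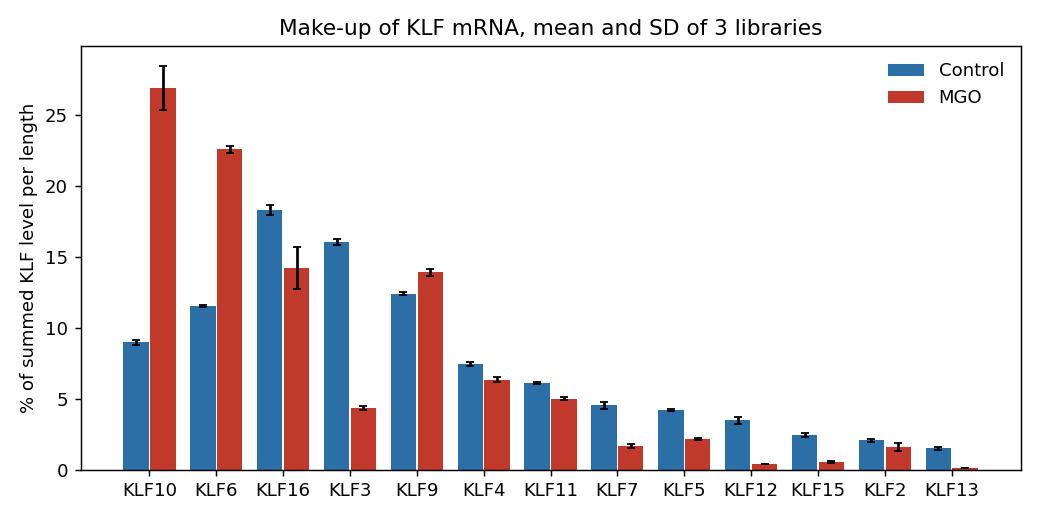
Share of each KLF gene in the summed KLF level per transcript length, for genes that reach 1% in either group (bars, mean of 3 libraries; error bars, SD). KLF6 goes from 11.5 to 22.6% and KLF3 from 16.0 to 4.35%. The sum also differs between the groups, so a smaller share is not read as a fall of the gene. KLF10, which is not one of the 10 members, holds the largest bar in MGO.

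Fold changes in these libraries followed transcript length (Spearman's rho −0.36 across 21773 genes, which share the same 6 libraries and are not independent replicates). The members' transcripts range from 1133 nt (KLF16) to 5175 nt (KLF9), as the median over GENCODE release 29 transcripts. With each library's trend on length removed, the log2 fold changes of the long members were larger, at 3.62 for KLF6 (4537 nt), 2.98 for KLF9 and 2.21 for KLF11 (4030 nt). Those of the short members were smaller, at 1.11 for KLF16 and 1.08 for KLF2 (1291 nt). KLF4 stood at 1.57, KLF5 at 1.26, KLF7 at 0.66 and KLF13 at −1.24 in that fit. KLF3 stood at 0.42 and was called raised there. KLF7, KLF16 and KLF13 have longest transcripts of 8362, 2890 and 6825 nt beside medians of 3037, 1133 and 3657 nt, so their values in that fit, and the place of KLF16 among the short members, are less certain.

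**Figure D3:**
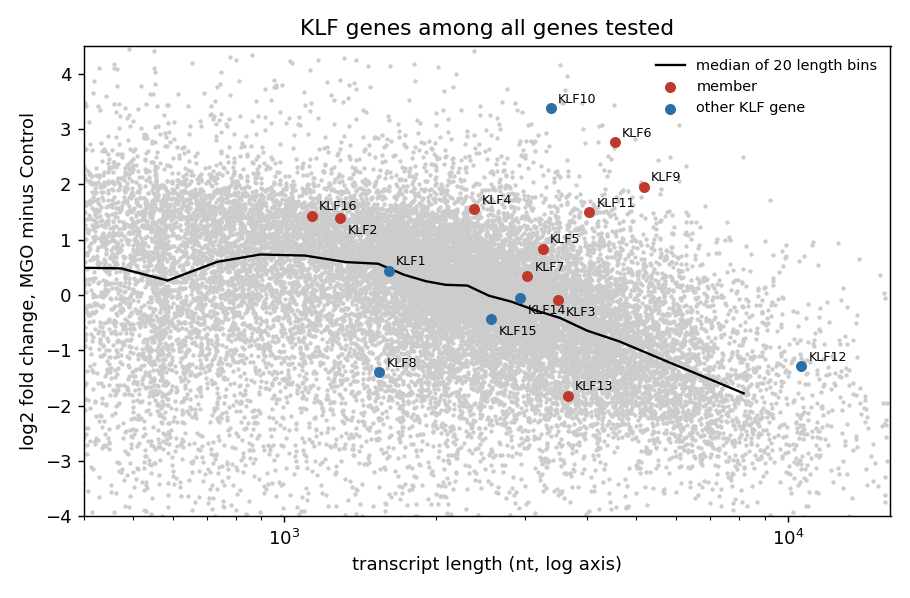
Log2 fold change (MGO minus Control) against transcript length in nt (log axis) for all genes tested with a length (grey; genes beyond the axes are not drawn), with KLF members in red and other KLF genes in blue. The line gives the median of length bins, and it falls towards long transcripts, where KLF6 at 2.76 and KLF9 at 1.95 lie above it and KLF13 at −1.82 below it.

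Outside the 10 members, 6 of the 8 other KLF genes passed the filter, with 1 raised, 3 lowered and 2 short of the threshold (median −0.24). Over all genes tested, 38.8% were raised and 40.5% lowered. KLF10, a TGF-β-inducible early gene that binds SIN3A, stood at 243 ± 13.4 CPM in MGO against 23.5 ± 1.20 in Control, a rise of 3.37 on the log2 scale (SE 0.07, edgeR adjusted p = 1.1e-11), which exceeds the value of every member. KLF12, a CtBP-binding repressor, fell by 1.29 on the log2 scale (SE 0.08, edgeR adjusted p = 1.48e-08), from 28.6 ± 2.94 to 11.7 ± 0.0795 CPM. Its transcript of 10637 nt is the longest of the family, and with the length trend removed its change was 0.44. KLF8, also CtBP-binding, fell by 1.40 (SE 0.32, edgeR adjusted p = 0.00135) from 26 to 43 counts in Control libraries to 6 to 12 in MGO libraries. KLF15, a metabolic regulator induced by glucocorticoids, fell by 0.44 (SE 0.10, edgeR adjusted p = 0.00138). KLF14 was at −0.05 (SE 0.13) and the erythroid factor KLF1 at 0.43 (SE 0.30), neither past the threshold. KLF14 was at 0.23 with the length trend removed and KLF1 at −0.085 under library size alone. KLF17 and KLF18 had 2 and 17 counts in all and were not tested.

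The SP factors, the nearest relatives of the KLFs with the same kind of zinc fingers, gave 2 raised, 3 lowered and 3 not past the threshold among 8 tested (median −0.03). The shares over all genes tested were 38.8% raised and 40.5% lowered. Under library size alone none was raised and 6 were lowered, and under upper quartile scaling 4 were raised and 2 lowered. SP4 was lower, at −1.76 (SE 0.09, edgeR adjusted p = 3.21e-09), as was SP1, at −0.47 (SE 0.09, edgeR adjusted p = 0.000419), whereas SP6 rose by 0.45 (SE 0.11, edgeR adjusted p = 0.00207). SP9 fell by 0.45 (with upper quartile scaling the call was lost, edgeR adjusted p = 0.0754), and SP8 rose by 0.25 (edgeR adjusted p = 0.0305), a call that ended without MGO replicate 2 (0.0615), MGO replicate 3 (0.123), Control replicate 1 (0.106) or Control replicate 3 (0.0853). SP2 (−0.14), SP3 (0.09) and SP5 (0.24) did not pass, and SP7 had no count. With the length trend removed SP1 was at 0.57, and under library size alone SP6 was at −0.08 and SP8 at −0.28.

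**Figure D4:**
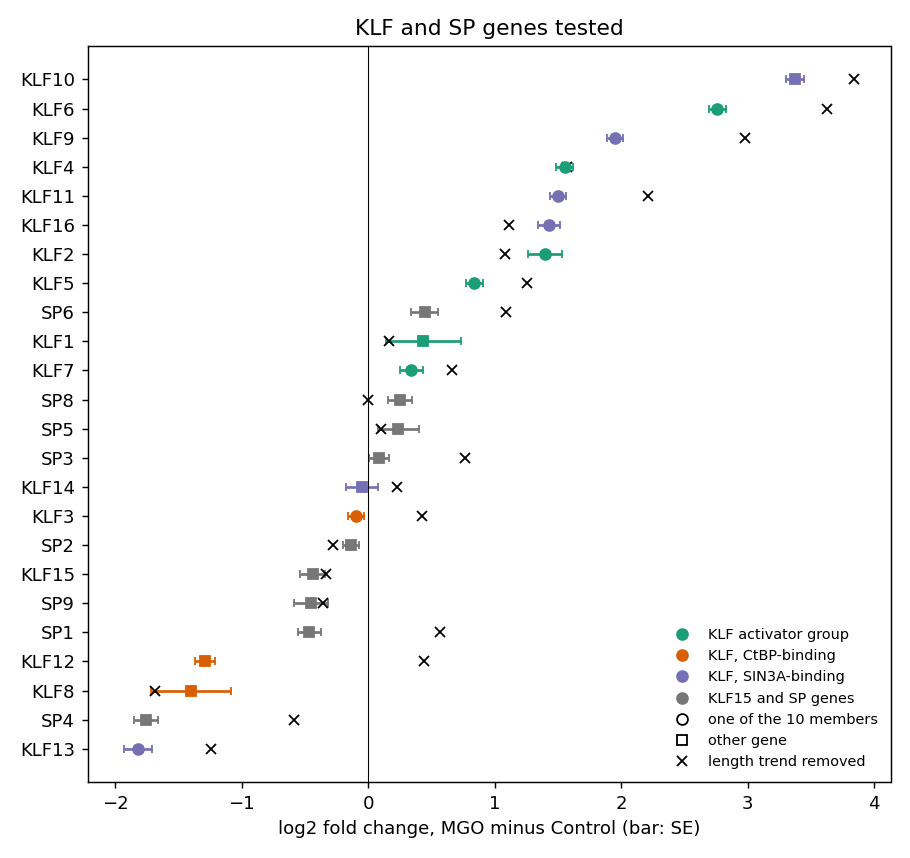
Log2 fold change (MGO minus Control, bars are SE) of every KLF and SP gene tested, coloured by the cofactor class of the KLF. Circles are the 10 members, squares the other genes and crosses the value with the transcript length trend removed. KLF10, KLF6 and KLF9 stand highest, and KLF3, KLF12, KLF14 and SP1 change sign between the 2 values.

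Among the cofactors that KLF proteins bind, 2 of 9 rose and 7 fell. Beside this and the next list, 38.8% of all genes tested were raised and 40.5% lowered. The histone deacetylase genes HDAC1 and HDAC2 rose by 0.28 (SE 0.06) and 0.21 (SE 0.07), and the acetyltransferase genes KAT2B and CREBBP were lower, at −1.89 (SE 0.08) and −1.54 (SE 0.11). The list's median was −0.66, and it was 0.06 with the length trend removed (3 raised, 4 lowered), while under library size alone all 9 were lowered, HDAC1 (−0.25) and HDAC2 (−0.32) included. The call of HDAC2 also ended without Control replicate 2 (edgeR adjusted p = 0.053) or Control replicate 3 (0.0632). With the length trend removed neither HDAC2 (0.09) nor CREBBP (0.06) was called. Of 6 genes for enzymes that attach ubiquitin to KLF proteins or remove it, 1 rose and 5 fell. FBXW7, whose product targets KLF2 and KLF5, rose by 1.05 (SE 0.07), and BTRC and VHL were lower, at −1.89 (SE 0.07) and −1.66 (SE 0.06). With the length trend removed 3 of this list were raised and 3 lowered.

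In the ERK5 and MEF2 route to KLF2 and KLF4, 2 of 7 tested genes rose and 5 fell (median −0.84). Beside this and the lists that follow, 38.8% of all genes tested were raised and 40.5% lowered. MAPK7, which encodes ERK5, rose by 0.65 (SE 0.06) and its activating kinase MAP2K5 by 0.29 (SE 0.06), while MAP3K2 was at −2.10 (SE 0.12) and MEF2C at −1.13 (SE 0.08). Under library size alone no gene of this list was raised, with MAPK7 at 0.12 and MAP2K5 at −0.23. With the length trend removed the list's median was −0.38 (2 raised, 4 lowered), and MAP2K5 was at 0.05 and not called. SRF, the factor that binds the CArG box, rose by 1.11 (SE 0.08) and its partner ELK1 by 0.96 (SE 0.07), while MRTFB was at −3.48 (SE 0.11) and ELK3 at −2.15 (SE 0.07), so that 2 of 6 in that list rose and 4 fell. The median of that list was −1.17, and −0.22 with the length trend removed (2 raised, 3 lowered). Among the CREB factors, which bind the CRE, and their CRTC coactivators, 3 of 6 rose and 3 fell. CRTC2 was at 0.73 and CREM at 0.62, against CREB1 at −1.43 and CRTC3 at −0.64. Under library size alone 1 was raised (median −0.57) and CREM was at 0.10, and with the length trend removed CREB1 was at 0.0018. Of 9 hormone receptor and FOXO genes, 3 rose and 6 fell (none raised and 8 lowered under library size alone, 5 raised and 3 lowered with the length trend removed). FOXO1, which drives KLF2 in T cells, rose by 0.70 (SE 0.07), FOXO4 rose by 0.28 (under library size alone FOXO1 was at 0.17 and FOXO4 at −0.24), and the receptor genes THRB and PGR were at −1.77 and −1.52.

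Of 20 genes described as KLF targets in other tissues, 17 were tested, and 9 were raised, 3 lowered and 5 short of the threshold (median 0.71). Over all genes tested, 38.8% were raised and 40.5% lowered. Under library size alone the counts were 8 raised and 7 lowered. SMAD7, an inhibitor of TGF-β signalling that KLF11 is known to repress, stood at 234 ± 5.38 CPM in MGO against 53.2 ± 2.09 in Control, a rise of 2.13 on the log2 scale (SE 0.06). CDKN1A, the cell cycle inhibitor p21 and a target of KLF4 and KLF6, stood at 343 ± 22.2 CPM against 86.9 ± 4.24, a rise of 1.98 (SE 0.07). CCND1, cyclin D1, was at −0.65 (SE 0.06) and ENG, the TGF-β co-receptor endoglin, at −2.75 (SE 0.26) with under 1 CPM. CCL5, the KLF13 target, had no count. The named genes are the extremes of the list, and CCNB1 (1.03), ODC1 (1.06) and BIRC5 (1.26) were among the others raised. The list does not separate targets that KLFs activate from those they repress, such as SMAD7. Its counts and median therefore show no direction of KLF activity. These genes have many other regulators, and the KLFs' part in their change was not tested.

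The nearest protein-coding genes on both sides of each member gave 20 neighbours, of which 16 were tested, with 5 raised and 9 lowered (median −0.50, or 0.28 with the length trend removed, where 9 were raised and 4 lowered). The main fit called 38.8% of all genes tested raised and 40.5% lowered. All 14 tested neighbours of the raised members had a lower log2 fold change than the member beside them. KLF16 (1.43) lies between REXO1, 3936 bp away at −1.44 (SE 0.07), and ABHD17A, 13242 bp away at 0.95 (SE 0.07). KLF9 (1.95) lies between SMC5 at −1.66 (SE 0.10) and TRPM3 at 1.33 (SE 0.14), the latter at 0.622 ± 0.0751 CPM in Control. CPO, beside KLF7, was at −1.88 (SE 0.49) with 79 counts in all. KLF12, at −1.29, is also the upper neighbour of KLF5, 608547 bp away. Since the raised members were listed for their change, the comparison with their neighbours is a description.

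**Figure D5:**
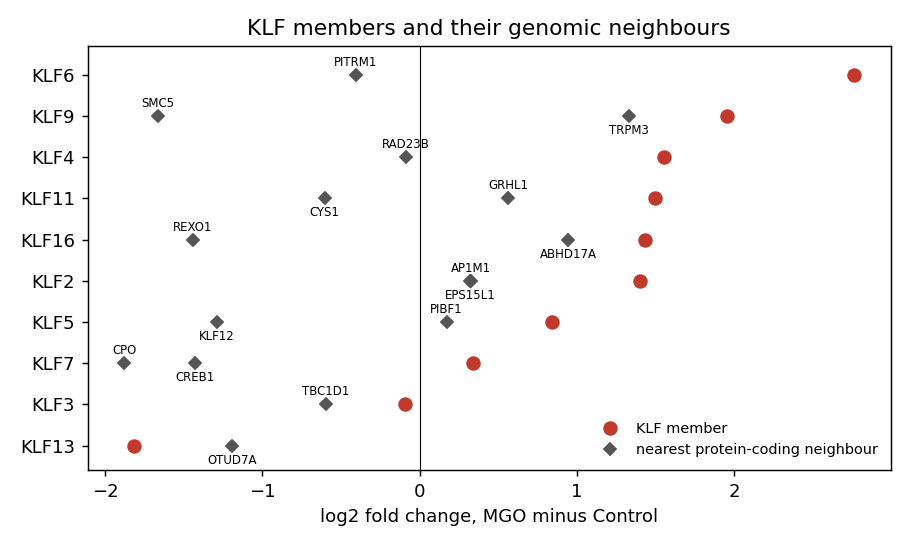
Log2 fold change (MGO minus Control) of each KLF member (red) and of its tested nearest protein-coding neighbours (grey diamonds, named). KLF6 at 2.76 stands beside PITRM1 at −0.41, and KLF13 at −1.82 beside OTUD7A at −1.20. With the length trend removed PITRM1 was at 0.04 and OTUD7A at 0.55.

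Of 13 rows named after a KLF gene (antisense, divergent and intronic transcripts and pseudogenes), 2 passed the filter. KLF7-IT1, an intronic transcript of KLF7, rose by 1.09 (SE 0.35, edgeR adjusted p = 0.0121) on 99 counts beside 10014 of KLF7, and KLF3-AS1 was at 0.24 (SE 0.20) on 281 counts beside 35764 of KLF3. The sources used here do not say how reads of overlapping genes and copies were divided, so these 2 values are uncertain. The call of KLF7-IT1 ended without Control replicate 3 (0.89, edgeR adjusted p = 0.0565) and under library size alone (0.56, edgeR adjusted p = 0.154). No gene overlapping a member in the annotation had more than 281 counts in all.

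By their profile over the 6 libraries, the genes most like KLF6 were SERTAD3, ARRDC3 and RIPK4, with a root mean square difference of 0.0449, 0.0522 and 0.0586 in centred log2 CPM, among the 13391 named genes that averaged 1 CPM or more. Their log2 fold changes were 2.79, 2.76 and 2.75. Those most like KLF13 were ZNF713 (0.0651), SLC16A9 (0.0666) and FAM83B (0.0666), with log2 fold changes of −1.79, −1.84 and −1.85. With 2 groups, this likeness is mostly that of the change between them.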

How the data were processed

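Polyadenylated RNA of 6 libraries (3 MGO, 3 Control) was sequenced after stranded library preparation, per the labels' protocols. The authors deposited whole-number counts for each gene. The tools, per the submitters' processing notes, included Trim Galore 0.6.10, STAR 2.7.0a, featureCounts 2.0.6 and DESeq2 1.42.0, with build hg38. For the annotation, strand setting and multiply mapping reads, no source used here says what was done. These deposited counts were analysed with edgeR 4.0.16 under R 4.3.3 (filterByExpr, TMM, quasi-likelihood test, Benjamini-Hochberg over all genes, threshold 0.05), after the steps were tested on simulated data. Few genes were changed in that simulation and none by transcript length. It therefore does not check the scaling where most genes are called, nor the length trend. The SE of a log2 fold change is its size over the root of the F statistic. Coordinates and transcript lengths came from GENCODE release 29 (GRCh38, the same assembly as hg38), promoters from RefSeq. The length trend was removed per library with a natural spline on log2 transcript length.

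No 2 libraries of a group were alike within counting noise (lowest chi-square over its degrees of freedom, 3.51). The members and lists were chosen with earlier results of these data known. Named were all KLF and SP genes, the 2 largest rises and falls past the threshold in each other list, and the 3 genes closest in profile to KLF6 and KLF13. Added after their values were seen were REXO1, PITRM1 and OTUD7A, as neighbours, CCNB1, ODC1 and BIRC5, as described targets, and the other markers. In edgeR's test an adjusted p belongs to the fit over all genes. Alternatives were other scalings, other filters, DESeq2 1.42.0, limma-voom (limma 3.58.1), a replicate block, removal of the length trend and leaving out each library. For blood cells, 1 marker and the sum of the list are not reported here.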

Additional observations from a re-analysis of the deposited data

How the results depend on the processing

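Across the other scalings, filters, tests and left-out libraries, the number of KLF members called raised lay between 7 and 9. The main fit gave 8, beside 38.8% of all genes tested. With the length trend removed 9 were raised, beside 9922 raised genes of the 23109 tested. Library size alone gave 7 raised and 2 lowered members, KLF3 (−0.62) joining KLF13 (−2.34). Of the same 23109 genes, 5673 were raised there in place of 8964, and 12885 were lowered in place of 9362. As in the main fit, nothing is read from these counts. Under library size alone the all-gene median shifted by −0.52 (log2) and raised genes were 30.6% of the calls, beside 48.9%. Upper quartile scaling shifted that median by 0.17. KLF7 turned to −0.18 under library size alone, as SP3 (−0.44), SP6 (−0.082) and SP8 (−0.28) did, and KLF12 (0.44) and SP1 (0.57) turned with the length trend removed. Of genes short of the threshold in the main fit, KLF1 (−0.085), SP3 (−0.44) and SP5 (−0.29) also turned under library size alone. KLF3 (0.42, then called raised) and KLF14 (0.23) turned with the length trend removed. Under upper quartile scaling KLF3 (0.08), KLF14 (0.12) and SP2 (0.04) turned, and without MGO replicate 1 KLF14 (0.05) and SP3 (−0.0037) did. The turns under library size alone follow from the shift of all genes, and the cause of the others was not tested beyond the length fit itself. KLF6 ranged from 2.23 (library size alone) to 3.62 (length trend removed) and from 2.72 to 2.78 without any 1 library. With a replicate block, 8 members were raised and 1 was lowered, beside 8869 raised and 9299 lowered genes of the 23109 tested. The replicate numbers did not pair the libraries (correlations of 0.0407, 0.0184 and 0.0127 between same-numbered deviations). Among the members, KLF13 and KLF2 rest on the fewest counts, and of the other tested KLF genes KLF1 and KLF8 do; nothing is concluded from KLF17 and KLF18.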

Other observations

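The members differed in how closely the MGO libraries agreed. The coefficient of variation of CPM within MGO was 18.4% for KLF2 and 11.5% for KLF16, in both of which MGO replicate 1 was the lowest library, and 9.22% for KLF7, in which MGO replicate 3 was the lowest. It was 1.17% for KLF5, 1.36% for KLF11, 2.41% for KLF9 and 2.89% for KLF6. Without MGO replicate 1 the log2 fold change of KLF2 was 1.54 and that of KLF16 was 1.53. MGO replicate 1 also stood apart over all genes. Its chi-square over the degrees of freedom was 45.7 against MGO replicate 2 and 50.4 against MGO replicate 3, beside 15.4 between MGO replicates 2 and 3. KLF16 (1133 nt) and KLF2 (1291 nt) have the shortest median transcripts of the members. Whether their low values in that library are particular to them was not tested.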
